A study of Homo sapiens with 18 samples.

Results

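The 33 genes described here code for the enzymes and regulators that make cholesterol and fatty acids. They were chosen by name from a table of 26485 genes, with earlier results of these data known. Their counts beside the shares of all genes are therefore descriptions and not independent support. There were 18 cholesterol enzymes, 5 regulators of the sterol regulatory element-binding protein (SREBP) pathway, 3 genes of sterol handling and 7 fatty acid enzymes. All 33 were among the 13096 genes that reached a mean normalized count of at least 10 and were tested.

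Cholesterol is built from acetyl-CoA through mevalonate, squalene and lanosterol, and most of its enzymes sit in the membrane of the endoplasmic reticulum (ER). When ER sterol is low, the escort protein SCAP carries the SREBP transcription factors to the Golgi, where they are cut free and raise transcription of sterol and fatty acid genes. INSIG proteins hold SCAP in the ER when sterol is plentiful, and INSIG1 is itself a target of the factors, so the pathway restrains itself.

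The study sequenced polyadenylated RNA of L3.6pl, a line grown from human pancreatic cancer. GemR is a gemcitabine-resistant derivative of it, a single line that was kept in 64 nM gemcitabine, and Par is the parental line. The cells were transfected for 48 h with an siRNA against STIM1 (siSTIM1) or a control siRNA (siCont). STIM1 is the ER calcium sensor that opens store-operated calcium channels. For the last 3 h the cells received 500 nM thapsigargin, which blocks the SERCA pump and so empties the ER calcium store, or DMSO as vehicle. The 6 groups held 3 libraries each: GemR siSTIM1 with thapsigargin, GemR siSTIM1 with vehicle, GemR siCont with thapsigargin, GemR siCont with vehicle, Par siCont with thapsigargin and Par siCont with vehicle. Par cells with siSTIM1 were not analysed here. The labels do not say whether the libraries of a group came from separate cultures, so p-values measure the spread between these libraries. GemR differed from Par both in origin and in the drug it was kept in, and these cannot be told apart.

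The libraries held 8922439 to 16519239 reads. STIM1 averaged 309.8 ± 40.8 normalized counts in GemR siSTIM1 thapsigargin libraries, 382 ± 23.7 in GemR siSTIM1 vehicle, 6187 ± 115 in GemR siCont thapsigargin, 5890.4 ± 793 in GemR siCont vehicle, 431 ± 15.1 in Par thapsigargin and 457 ± 20.6 in Par vehicle (SD, n = 3 each). The knockdown libraries thus matched their labels, with STIM1 brought below its Par level. All 8 epithelial and ductal markers had a mean of at least 10, whereas 0 of 4 acinar, 0 of 4 endocrine and 0 of 3 liver markers did. Of 7 fibroblast markers, COL1A1 and COL1A2 reached a mean of 10 (list sum 1004 to 3185 per library), and DCN and FAP were at 0 in every library. CD68 of 7 immune markers, PECAM1 and CDH5 of 4 endothelial markers and FABP4, a fatty acid-binding protein, of 4 adipocyte markers also reached it; ADIPOQ was at 0 throughout. GemR siCont vehicle replicate 1 stood apart: over 12419 genes its deviation from the group mean fell with exon length (Spearman rho -0.505, a description across genes), and GemR siSTIM1 thapsigargin replicate 1 was the next lowest (rho -0.428). GemR siCont vehicle replicates 2 and 3 were at 0.346 and 0.459. Deviations from a shared group mean offset one another, so these values are not independent. The cholesterol enzymes are short (median 4302 exon bases, 1280 to 7238) and the fatty acid enzymes long (median 9364, 5217 to 13008). Called member values that moved by over 1.5 times without GemR siCont vehicle replicate 1 are therefore also given without it. No called value moved that far without GemR siSTIM1 thapsigargin replicate 1, and smaller moves are not all given.

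Promoters of 6 members described below are shown, chosen after their values and motifs were seen as examples of windows with both motifs searched, with CCAAT alone and with neither; the SREBP factors act at promoters together with NF-Y and SP1. The stretches are RefSeq sequence of GRCh38.p14, read on the gene's own strand from the promoter window of the first listed start (HMGCS1 and INSIG2 have several) and ending before the annotated gene; capitals mark CCAAT, the NF-Y motif, and CACNCCAC, the core of the sterol regulatory element (SRE), on either strand. INSIG1 (chr7:155297655-155297737, + strand) and SREBF2 (chr22:41832958-41833028, + strand) hold both motifs. STARD4 (chr5:111512636-111512711, - strand), HMGCS1 (chr5:43313538-43313582, - strand) and MSMO1 (chr4:165327469-165327622, + strand) hold CCAAT without the core. INSIG2 (chr2:118088362-118088451, + strand) is shown as a regulator with neither.
INSIG1: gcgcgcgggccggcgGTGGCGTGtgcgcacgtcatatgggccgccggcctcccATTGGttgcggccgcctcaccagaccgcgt
SREBF2: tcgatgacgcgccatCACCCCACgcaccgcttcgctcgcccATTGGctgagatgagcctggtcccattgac
STARD4: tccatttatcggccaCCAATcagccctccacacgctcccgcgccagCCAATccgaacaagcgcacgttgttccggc
HMGCS1: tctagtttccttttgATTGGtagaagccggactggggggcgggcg
MSMO1: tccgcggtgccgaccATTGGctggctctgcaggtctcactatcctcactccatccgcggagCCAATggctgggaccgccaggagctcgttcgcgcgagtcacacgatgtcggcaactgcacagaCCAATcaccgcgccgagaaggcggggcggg
INSIG2: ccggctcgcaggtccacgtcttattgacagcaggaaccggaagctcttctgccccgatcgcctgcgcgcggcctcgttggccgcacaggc

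RefSeq listed starts for 29 of the 33 genes, all but ACAT2, FDFT1, SQLE and FASN, and 8 of the 29 had several. CCAAT stood within 250 bases before to 50 after a start in 22 of 29 members (75.9%), against 39.72% of 27305 genes searched the same way on both strands. By class it was found in 13 of 15 cholesterol enzymes, 2 of 5 regulators, 3 of 3 sterol handling genes and 4 of 6 fatty acid enzymes. The SP1 box GGGCGG was present in 28 of 29 members (96.6%) and 48.3% of all genes. The longer element TCACNCCAC, which contains the core, was matched in SREBF2 alone (1 of 29, against 1.39% of all genes). Its core CACNCCAC, a motif chosen after the data were seen, was matched in 6 of 29 members (20.7%), INSIG1, IDI1, SCD, SC5D, ACACA and SREBF2, against 7.05% of all genes. The E-box CACGTG was matched in 4 of 29 (13.8%, against 8.77%). TGATGNAA, read here as the ATF4 composite, was matched in 0 of 29 and in 4.46% of all genes. A match says only that these letters are in the window. The 27305 genes were not limited to protein-coding or expressed genes, whereas all 33 members are protein-coding and were expressed. The shares are thus not matched, and nothing particular to the pathway is read from them.

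**Figure D1:**
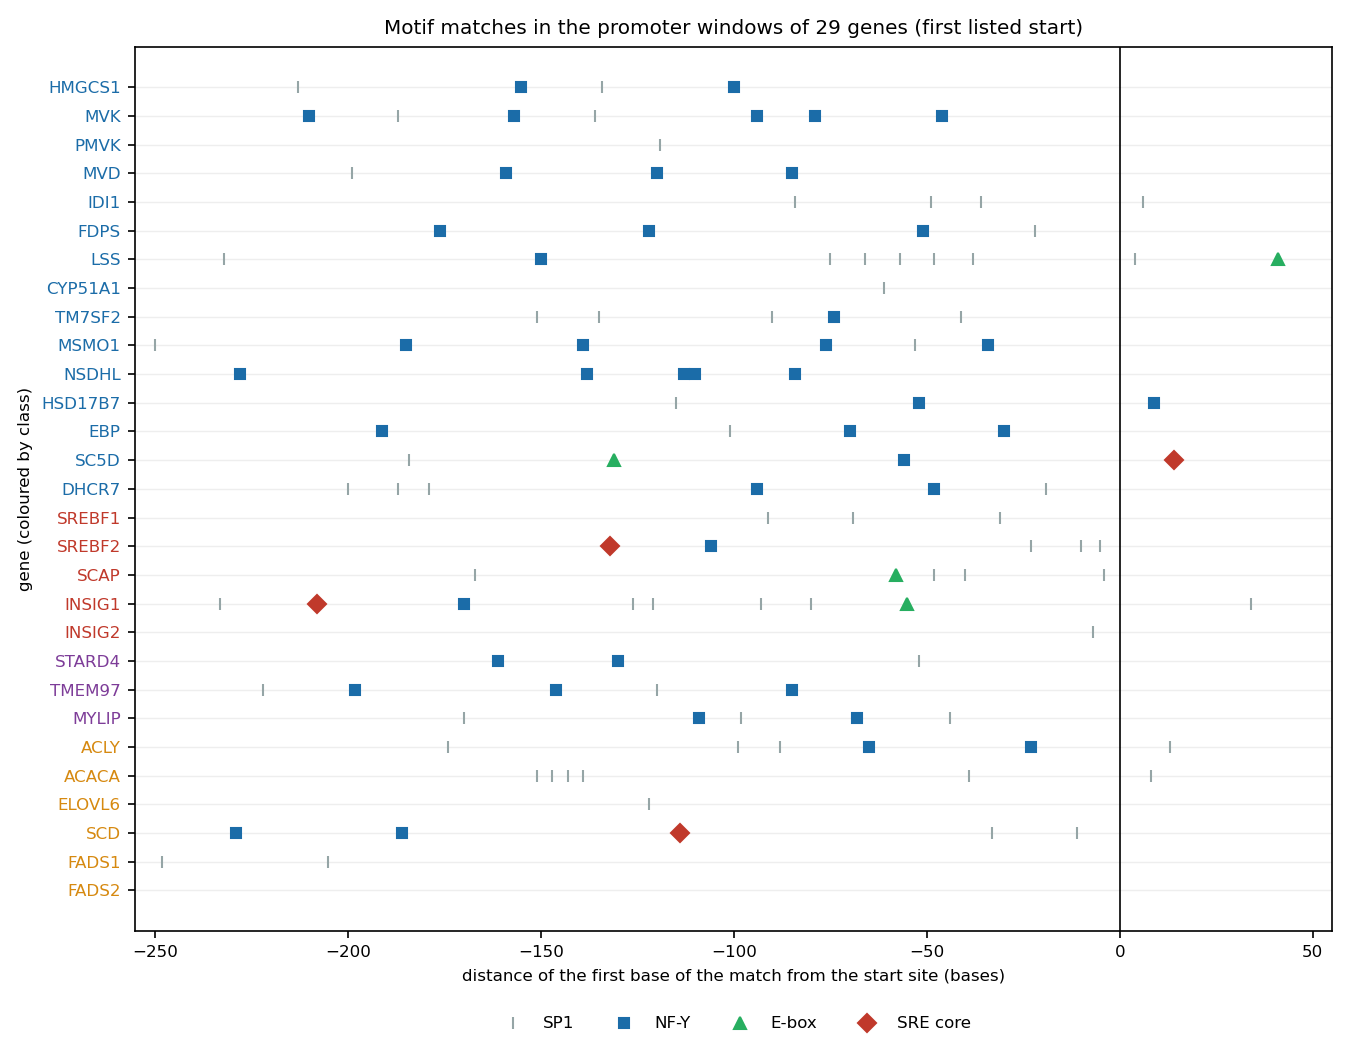
Motif matches on either strand in the promoter windows of 29 genes (first listed start; rows), by distance in bases of the first base of the match from the start (horizontal axis). Blue squares (CCAAT) are scattered through the cholesterol enzyme rows, but the first windows of PMVK, CYP51A1 and IDI1 hold none. Those of the regulators INSIG2, SREBF1 and SCAP and of ACACA, ELOVL6, FADS1 and FADS2 hold none either.

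Levels per exon length set the scale. Among GemR siCont vehicle libraries, SCD, the desaturase that makes monounsaturated fatty acids, had the highest level of the 33 members at 1501 ± 96.6 normalized counts per kilobase of merged exon (SD, n = 3). ACLY, which makes cytosolic acetyl-CoA, followed at 693 ± 118, and FDFT1, squalene synthase, at 649 ± 104. At the low end stood HSD17B7, a sterol ketoreductase, at 24.3 ± 4.81 and FADS2, a polyunsaturated fatty acid desaturase, at 12.3 ± 0.81. Over the 6 groups, the mean normalized count was lowest in GemR siSTIM1 vehicle for 22 of 33 members and highest in a siCont thapsigargin group for 24, 12 in GemR and 12 in Par.

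Within 3 h, thapsigargin raised a shared core of cholesterol enzymes, INSIG1, SREBF1 and STARD4 in every cell background. Of 33 members, 19 rose and 3 fell in Par (limma, adjusted p under 0.05), where 20.5% of all 13096 genes rose and 19.7% fell. In GemR siCont 18 rose and 2 fell, against 17.9% and 15.8% of all genes (14 rose and 5 fell after quantile normalization), and in GemR siSTIM1 13 rose and 2 fell, against 12.5% and 11.9%. In the 3 comparisons together, which share no library, 10 members rose every time, against 7.8% of all genes: HMGCS1, IDI1, SQLE, CYP51A1, MSMO1, NSDHL, HSD17B7, SREBF1, INSIG1 and STARD4. The calls of CYP51A1 and INSIG1 in GemR siSTIM1 and of NSDHL and HSD17B7 in GemR siCont did not hold under every alternative, as given for each gene. In these bulk samples, fewer cells of a type and less RNA per cell cannot be told apart. The summed fibroblast markers, nearly all COL1A1, were higher with thapsigargin too, at 1456 to 1732 in GemR siSTIM1 thapsigargin, against 1017 to 1162 in vehicle, at 1382 to 1524 in GemR siCont thapsigargin, against 1004 to 1240 in vehicle, and at 2983 to 3185 in Par thapsigargin, against 2011 to 2251 in vehicle; their part in the results was not tested.

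HMGCS1, the synthase that makes HMG-CoA, had 2659, 2851 and 3308 normalized counts in GemR siSTIM1 thapsigargin libraries, against 1721, 1694 and 1710.1 in GemR siSTIM1 vehicle. It had 5882, 5218 and 6123 in GemR siCont thapsigargin, against 2889.6, 2742 and 2699.9 in GemR siCont vehicle, and 6866, 6100.3 and 6091 in Par thapsigargin, against 1909, 2178 and 1833 in Par vehicle. Each treated group lay wholly above its vehicle group. On the log2(normalized count + 1) scale, used for all fold changes below with the standard error of the limma fit, the change was 1.69 ± 0.08, adjusted p = 5.29e-12, in Par cells, 1.04 ± 0.08, adjusted p = 7.34e-09, in GemR siCont cells and 0.78 ± 0.08, adjusted p = 6.21e-07, in GemR siSTIM1 cells. IDI1, which interconverts the isoprene units, rose by 1.28 ± 0.11, 0.70 ± 0.11 and 0.92 ± 0.11 in the same order of backgrounds. SQLE, the squalene epoxidase, had 837, 868 and 863 in GemR siSTIM1 thapsigargin, against 502, 487 and 593 in GemR siSTIM1 vehicle; its changes were 0.75 ± 0.09, 0.95 ± 0.09 and 0.70 ± 0.09. MSMO1, the methylsterol oxidase, changed by 1.40 ± 0.09, 0.70 ± 0.09 and 0.65 ± 0.09, and HSD17B7 by 1.44 ± 0.17, 0.60 ± 0.17 and 1.07 ± 0.17. The call of HSD17B7 in GemR siCont was lost without GemR siCont vehicle replicate 2 (adjusted p = 0.0541). The lanosterol demethylase CYP51A1 shares 79.4% of its exon bases with the same-strand locus AC000120.2. The annotation used for counting is not given in the sources used here, so the reads of CYP51A1 are uncertain. CYP51A1 rose by 0.47 ± 0.09, 0.47 ± 0.09 and 0.31 ± 0.09. The last call was lost without GemR siSTIM1 vehicle replicate 2 or 3 or thapsigargin replicate 3 (adjusted p = 0.0555 to 0.0797). It was also lost in edgeR (0.0696) and DESeq2 (0.0849), which here and below left out GemR siSTIM1 vehicle replicate 3.

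By class, 12 of 18 cholesterol enzymes rose and 1 fell in Par, 9 rose and 1 fell in GemR siCont, and 9 rose in GemR siSTIM1. Their median changes were 0.48, 0.29 and 0.28, beside -0.02, -0.03 and -0.01 for all genes tested. The enzymes that did not rise were spread along the route. FDPS, which makes farnesyl diphosphate, changed by -0.10 ± 0.08, -0.17 ± 0.08 and -0.07 ± 0.08, none called. LSS, lanosterol synthase, changed by 0.02 ± 0.08, 0.16 ± 0.08 and 0.09 ± 0.08, none called. ACAT2, the cytosolic thiolase of the first step, was at -0.03, -0.03 and 0.08, and TM7SF2, a sterol reductase, at 0.08, -0.03 and 0.24, none called; ACAT2 shares exon bases with SOD2 and TCP1 on the other strand, and the library kit does not mark strand. NSDHL, a sterol dehydrogenase, rose by 0.69 ± 0.09, 0.35 ± 0.09 and 0.47 ± 0.09, the second lost in a fit to that background's libraries alone (adjusted p = 0.0516). DHCR7, a sterol reductase of the last step, rose by 0.49 ± 0.09 in Par and 0.34 ± 0.09 in GemR siCont. In Par alone of the 3, FDFT1 was called (0.30 ± 0.08; adjusted p = 0.0558 after quantile normalization). PMVK, the second mevalonate kinase, fell by 0.50 in Par (adjusted p = 0.00856; 0.0555 without Par thapsigargin replicate 1). EBP, a sterol isomerase, fell by 0.37 in GemR siCont, a call lost without GemR siCont vehicle replicate 1 (-0.20, adjusted p = 0.123) or thapsigargin replicate 2 or 3. SC5D, a sterol desaturase, rose by 0.50 ± 0.09 in Par and, near the threshold, by 0.24 ± 0.09 in GemR siCont (adjusted p = 0.0485), a call lost with any of 14 of the 18 libraries left out (adjusted p = 0.053 to 0.178). MVD, the mevalonate decarboxylase, and MVK, mevalonate kinase, rose in Par (0.84 ± 0.14 and 0.39 ± 0.10). In GemR siSTIM1, the call of MVD (0.53) was lost without thapsigargin replicate 1 (adjusted p = 0.0519), and that of MVK (0.33) without any of 4 of that background's 6 libraries (adjusted p = 0.0741 to 0.101): vehicle replicates 1 and 2 and thapsigargin replicates 1 and 3.

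**Figure D2:**
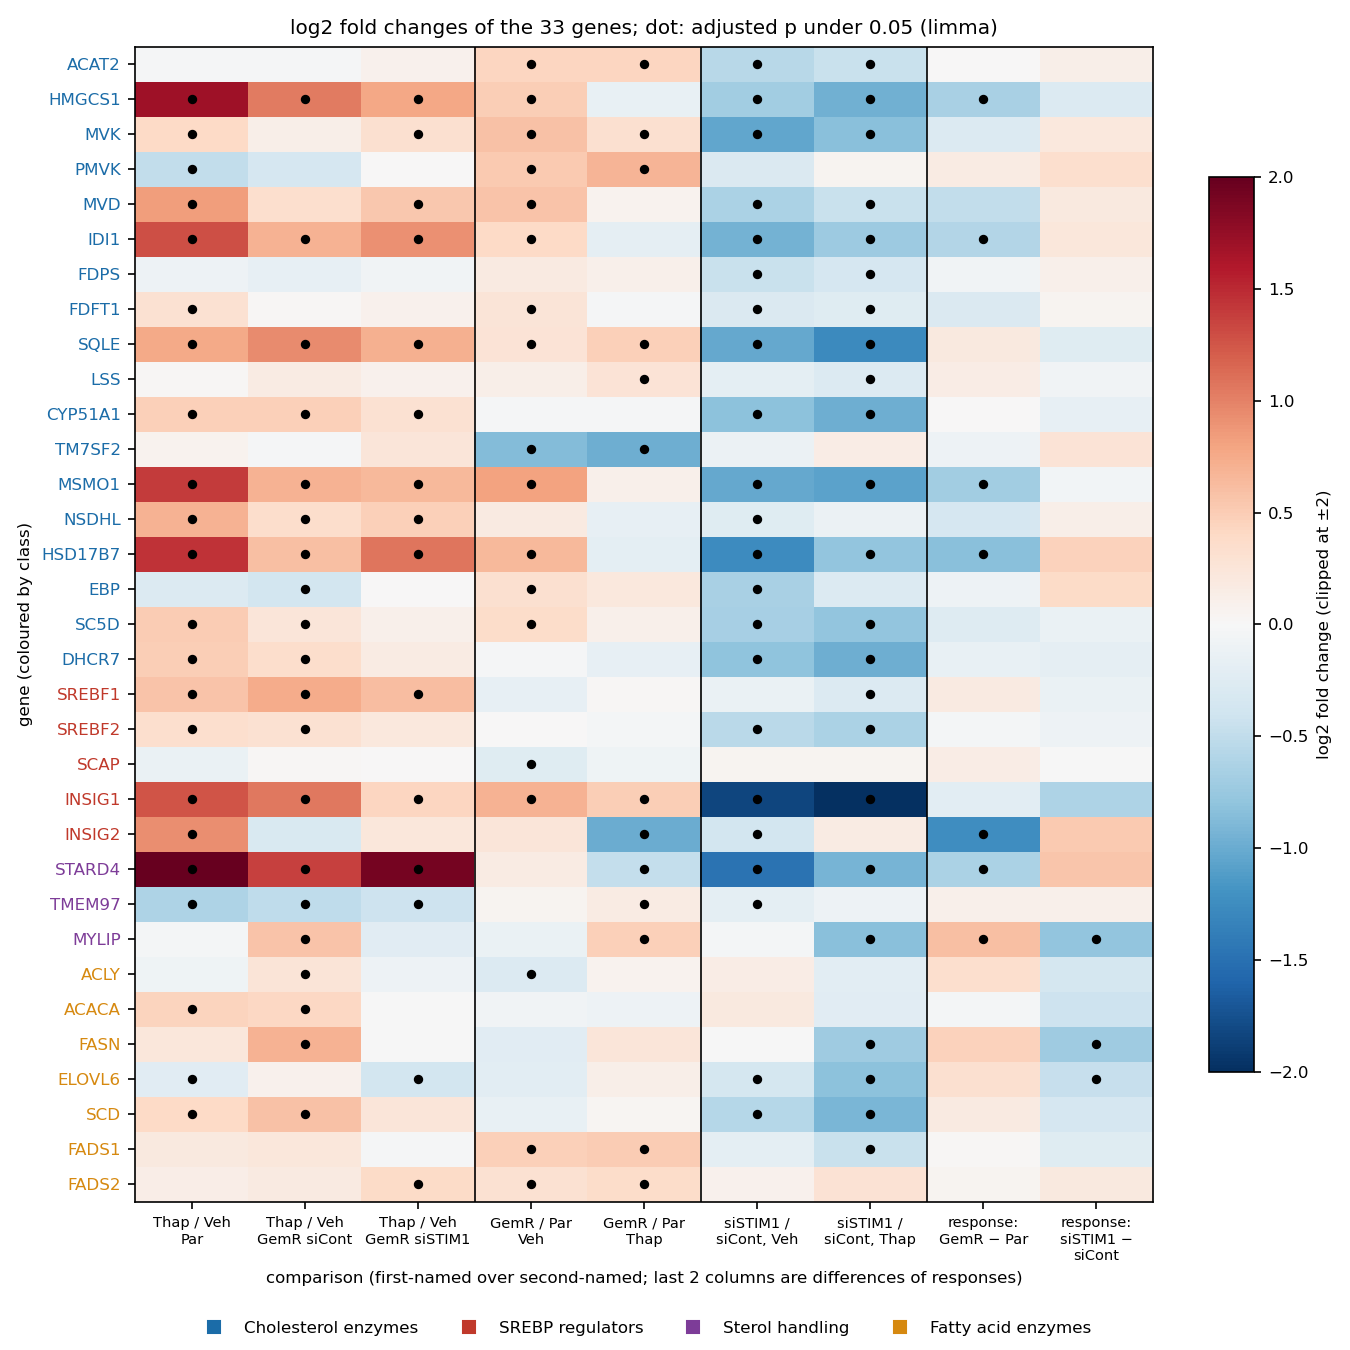
Log2 fold changes (colour, clipped at 2 in each direction) of the 33 genes (rows) in 7 comparisons and 2 differences of responses (columns); dots mark an adjusted p under 0.05 in limma. The thapsigargin columns are mostly red in the upper rows, and in the columns for siSTIM1 over siCont every dot sits on blue.

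Among the regulators, INSIG1 rose in each background and INSIG2 in Par. INSIG1 had 144, 148 and 175 normalized counts in GemR siSTIM1 thapsigargin libraries, against 129.7, 91.5 and 127 in GemR siSTIM1 vehicle. It had 862, 815 and 882 in GemR siCont thapsigargin, against 503, 344 and 402 in GemR siCont vehicle, and 648, 588 and 588 in Par thapsigargin, against 218, 295 and 254 in Par vehicle. All treated groups were clear of their vehicle groups, with the narrowest gap in GemR siSTIM1. The change was 1.26 ± 0.14, adjusted p = 9.91e-07, in Par cells, 1.05 ± 0.14, adjusted p = 1.07e-05, in GemR siCont cells and 0.43 ± 0.14, adjusted p = 0.0344, in GemR siSTIM1 cells. The last call was lost without GemR siSTIM1 vehicle replicate 2 (0.27, adjusted p = 0.211) or thapsigargin replicate 2 or 3 (0.0502 to 0.211 over the 3), in edgeR (adjusted p = 0.0528), without the filter on low values (0.0532) and in a fit to that background's libraries alone (0.0648). INSIG2, the second retention protein, had 919.8, 906 and 866 in Par thapsigargin, against 478, 551 and 397 in Par vehicle, a change of 0.93 ± 0.12, adjusted p = 3.89e-06. In GemR siCont thapsigargin it had 491, 403 and 464, against 671, 503 and 516 in GemR siCont vehicle, which missed the threshold (-0.31 ± 0.12, adjusted p = 0.0532), as it did in GemR siSTIM1 (0.22 ± 0.12). SREBF1, which codes for the SREBP that favours fatty acid genes, rose by 0.57 ± 0.08 in Par cells, 0.75 ± 0.08 in GemR siCont cells and 0.61 ± 0.08 in GemR siSTIM1 cells; it shares 6.9% of its exon bases with RAI1 on the other strand. SREBF2, the factor that favours cholesterol genes, rose by 0.34 ± 0.09 and 0.30 ± 0.09 in Par and GemR siCont and was at 0.21 ± 0.09 in GemR siSTIM1 (adjusted p = 0.0886). Both calls were lost after quantile normalization (adjusted p = 0.0746 in Par and 0.06 in GemR siCont). SCAP was called in 0 of the 3 comparisons, with changes from -0.13 to 0.02. The regulators' median changes were 0.57, 0.30 and 0.22.

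STARD4, a transfer protein that moves sterol between membranes, had the widest thapsigargin change of the 33 members in all 3 backgrounds. It had 648, 698 and 824 normalized counts in GemR siSTIM1 thapsigargin libraries, against 176, 186 and 209.5 in GemR siSTIM1 vehicle. It had 1424, 1271 and 1416 in GemR siCont thapsigargin, against 565, 479 and 554 in GemR siCont vehicle, and 2032, 1873 and 1799 in Par thapsigargin, against 437, 582 and 422 in Par vehicle. No treated library overlapped a vehicle library of its background. The change was 2.0 ± 0.12, adjusted p = 5.79e-11, in Par cells, 1.36 ± 0.12, adjusted p = 1.6e-08, in GemR siCont cells and 1.91 ± 0.12, adjusted p = 1.9e-10, in GemR siSTIM1 cells. TMEM97, a sterol-binding ER and lysosomal membrane protein, was the 1 member that fell in all 3 (5.21% of all genes did), by 0.62, 0.51 and 0.42; it shares exon bases with IFT20 on the other strand. MYLIP, the ligase that marks lipoprotein receptors for degradation, had 285, 296 and 309 in GemR siCont thapsigargin, against 175, 201 and 226 in GemR siCont vehicle, and 133, 178 and 189 in GemR siSTIM1 thapsigargin, against 178, 238 and 171 in GemR siSTIM1 vehicle. It rose by 0.57 ± 0.14 in GemR siCont, and was not called in Par (-0.04 ± 0.14) or GemR siSTIM1 (-0.22 ± 0.14).

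**Figure D3:**
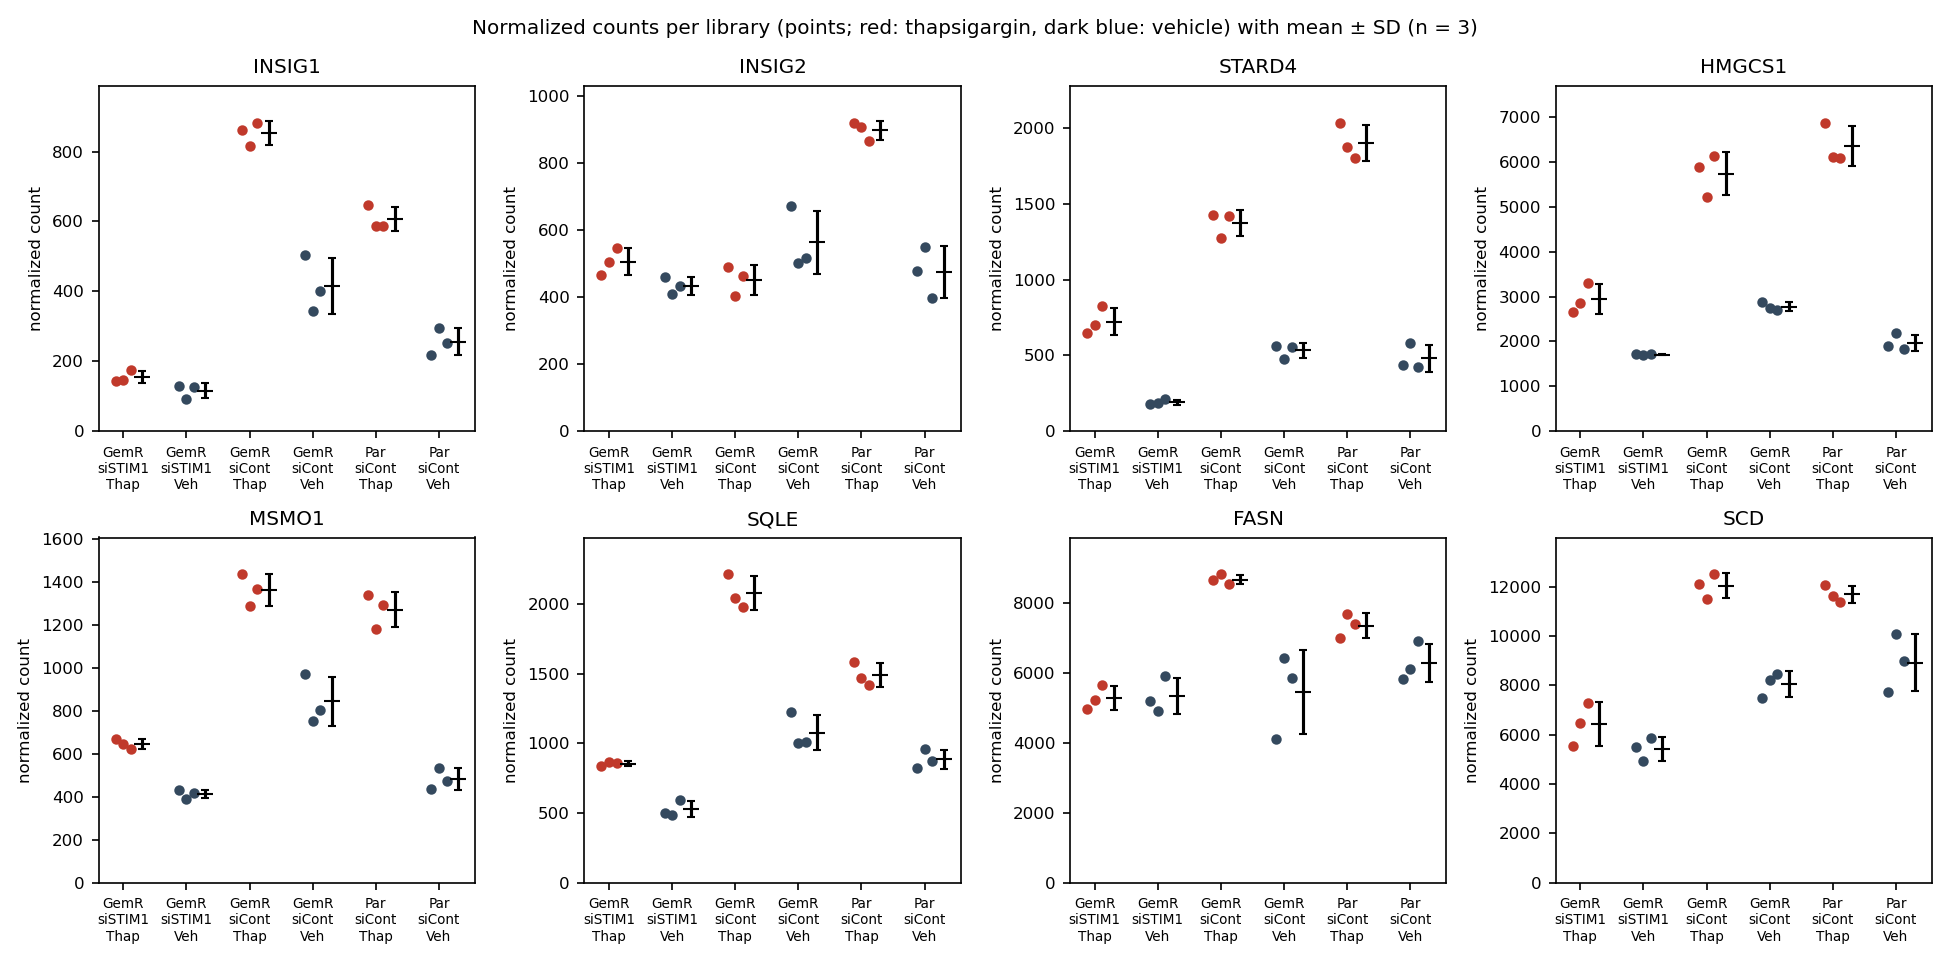
Normalized counts of 8 members in each library (points; red thapsigargin, dark blue vehicle) with mean and SD of 3 libraries, by group. INSIG1 lies between 91.5 and 175 in the GemR siSTIM1 libraries and between 218 and 882 in the others, and FASN is highest in the 3 GemR siCont thapsigargin libraries.

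Among the fatty acid enzymes, SCD and ACACA rose with thapsigargin in Par and GemR siCont, FASN and ACLY in GemR siCont, and FADS2 in GemR siSTIM1. Of 7, 2 rose and 1 fell in Par, where 20.5% of all genes rose and 19.7% fell, and 1 rose and 1 fell in GemR siSTIM1, where 12.5% rose and 11.9% fell; both counts were near those shares. In GemR siCont 4 rose, where 17.9% of all genes rose. The median changes were 0.19, 0.25 and -0.01. FASN, the synthase that builds palmitate, had 8644, 8814 and 8548 normalized counts in GemR siCont thapsigargin libraries, against 4102, 6414 and 5852 in GemR siCont vehicle, a change of 0.69 ± 0.12, adjusted p = 0.000102. The lowest of these vehicle counts was in replicate 1, the library set apart above, so the change is smaller without it. The call held with each library left out in turn. In GemR siSTIM1 it had 4980.4, 5214 and 5649 with thapsigargin, against 5190.0, 4922 and 5913 with vehicle, and in Par 6989, 7685 and 7387 with thapsigargin, against 5837, 6120.1 and 6900.2 with vehicle. The GemR siCont groups were apart, the GemR siSTIM1 groups overlapped (-0.01 ± 0.12), and the Par groups were apart without a call (0.23 ± 0.12, adjusted p = 0.125). SCD rose by 0.40 ± 0.10 in Par and 0.58 ± 0.10 in GemR siCont, with 0.24 ± 0.10 in GemR siSTIM1 (adjusted p = 0.087). ACACA, the carboxylase that makes malonyl-CoA, rose by 0.44 ± 0.15 in Par and 0.41 ± 0.15 in GemR siCont. Its Par call was lost without Par vehicle replicate 1 or 2 or thapsigargin replicate 2 (adjusted p = 0.051 to 0.1), and its GemR siCont call without vehicle replicate 1 (0.19, adjusted p = 0.203) or thapsigargin replicate 2 or 3; both were also lost after quantile normalization (0.0649 and 0.0544), and the second in edgeR (0.055). ACLY rose by 0.25 ± 0.09 in GemR siCont (adjusted p = 0.0473), which fell to 0.10 (adjusted p = 0.278) without vehicle replicate 1 and was lost with any of 15 of the 18 libraries left out. ELOVL6, the elongase of palmitate, fell by 0.23 in Par (adjusted p = 0.0456, lost with any of 8 libraries left out, adjusted p = 0.0514 to 0.142) and by 0.37 in GemR siSTIM1. FADS2 rose by 0.39 ± 0.11 in GemR siSTIM1. That call was lost without vehicle replicate 2 or 3 or thapsigargin replicate 3 (adjusted p = 0.0552 to 0.0837). DESeq2, which left out vehicle replicate 3, lost it too (0.0591). FADS1, the neighbour of FADS2 on the opposite strand, was at 0.19, 0.22 and -0.03, none called.

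Knockdown of STIM1 in GemR lowered members of every class, and 0 of 33 rose in the limma test (after median centring, FADS2 was called higher with thapsigargin). With vehicle, 22 of 33 fell (limma), where 21.1% of all genes fell and 20.9% rose, and with thapsigargin 23 fell, where 18.9% of all genes fell and 17.7% rose. At an unadjusted p under 0.05, 0 members rose with vehicle and 1 with thapsigargin. edgeR called 0 and 1 higher (15.2% and 18.7% of all genes), and DESeq2 0 and 0 (16.6% and 18.3%). Markers of other cell types moved with siSTIM1 too. The summed adipocyte list, nearly all FABP4, was at 704 to 788 in GemR siSTIM1 vehicle, against 130 to 258 in GemR siCont vehicle, and at 629 to 771 in GemR siSTIM1 thapsigargin, against 110 to 139 in GemR siCont thapsigargin, with ADIPOQ at 0 in every library. The endothelial list was at 114 to 142 in GemR siSTIM1 vehicle, against 212 to 230 in GemR siCont vehicle, and at 144 to 178 in GemR siSTIM1 thapsigargin, against 242 to 258 in GemR siCont thapsigargin. The part of these markers in the results was not tested. The vehicle and thapsigargin comparisons share no library, and 18 members fell in both, against 11.7% of all genes, while 0 rose in both, against 11% of all genes.

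INSIG1 changed most. Its GemR siSTIM1 vehicle libraries, listed above, all lay below the lowest GemR siCont vehicle library, and the same held with thapsigargin. The change was -1.83 ± 0.14, adjusted p = 1.36e-08 with vehicle and -2.45 ± 0.14, adjusted p = 1.78e-10 with thapsigargin. STARD4 was next with vehicle (-1.48 ± 0.12, adjusted p = 1.19e-08) and was at -0.93 ± 0.12, adjusted p = 3.61e-06 with thapsigargin. SREBF2 had 2489, 2236 and 2664 normalized counts in GemR siSTIM1 vehicle, against 3182, 3769 and 3741 in GemR siCont vehicle. With thapsigargin it had 2727, 2706 and 3084 in GemR siSTIM1, against 4391, 4272 and 4482 in GemR siCont. It fell by 0.53 and 0.63, with no overlap of groups in either treatment. SREBF1 was at -0.13 ± 0.08 with vehicle (adjusted p = 0.18) and fell by 0.27 with thapsigargin, a call lost without GemR siCont or GemR siSTIM1 thapsigargin replicate 2 (adjusted p = 0.054 and 0.0873). SCAP was not called (0.06 ± 0.07 and 0.05 ± 0.07). INSIG2 fell by 0.37 with vehicle, a call lost without GemR siCont vehicle replicate 1 (-0.23, adjusted p = 0.104) or GemR siSTIM1 vehicle replicate 2 or 3, and was at 0.16 ± 0.12 with thapsigargin.

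Of 18 cholesterol enzymes, 15 fell with vehicle and 14 with thapsigargin, with medians of -0.66 and -0.59. SQLE had 502, 487 and 593 normalized counts in GemR siSTIM1 vehicle, against 1225, 1003 and 1008 in GemR siCont vehicle. The thapsigargin libraries had 837, 868 and 863 in GemR siSTIM1, against 2213, 2042 and 1977 in GemR siCont. The groups did not overlap, and SQLE fell by 1.03 and 1.28. HSD17B7 had 47.8, 52.9 and 41.7 in GemR siSTIM1 vehicle, against 140.3, 94.6 and 114 in GemR siCont vehicle, and fell by 1.26 there and by 0.79 with thapsigargin. IDI1 fell by 0.95 and 0.73, SC5D by 0.67 and 0.79, ACAT2 by 0.55 and 0.44, and FDPS by 0.44 and 0.34. EBP fell by 0.65 with vehicle and was at -0.27 ± 0.12 with thapsigargin. MVK fell by 1.04 and 0.83, MSMO1 by 1.02 and 1.07, and HMGCS1 by 0.70 and 0.97. CYP51A1 fell by 0.81 and 0.98, and DHCR7 by 0.81 and 0.98. Both ends and the middle of the route were thus among the genes that fell. Not called with vehicle were TM7SF2 (-0.11 ± 0.18, and 0.16 ± 0.18 with thapsigargin), PMVK (-0.29 ± 0.14 and 0.05 ± 0.14) and LSS (-0.19 ± 0.08, and -0.27 ± 0.08 with thapsigargin, called). Several vehicle calls were smaller without GemR siCont vehicle replicate 1: MVD was at -0.63 with it and -0.41 without (adjusted p = 0.00249), FDFT1 at -0.30 and -0.17 (adjusted p = 0.0392), and NSDHL at -0.24 and -0.13 (adjusted p = 0.211). The call of NSDHL was also lost without any of the 3 GemR siSTIM1 vehicle libraries. With thapsigargin, the call of LSS was lost without GemR siCont thapsigargin replicate 1 (adjusted p = 0.0546), that of MVD without the same library or GemR siSTIM1 thapsigargin replicate 2 or 3 (adjusted p = 0.0618 to 0.092), and that of FDFT1 without GemR siCont thapsigargin replicate 1 or 3 or GemR siSTIM1 thapsigargin replicate 2 or 3 (adjusted p = 0.0814 to 0.132).

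Among fatty acid enzymes, 2 of 7 fell with vehicle and 4 with thapsigargin, where 21.1% and 18.9% of all genes fell. The vehicle count was near that share. The medians were -0.01 and -0.45. SCD had 5490.4, 4922 and 5881 normalized counts in GemR siSTIM1 vehicle, against 7466, 8213 and 8461 in GemR siCont vehicle. With thapsigargin it had 5522, 6466 and 7302 in GemR siSTIM1, against 12122, 11485 and 12489.8 in GemR siCont. The groups were apart in both treatments, and SCD fell by 0.57 and 0.91. ELOVL6 fell by 0.35 and 0.82. FASN was at -0.01 ± 0.12 with vehicle and fell by 0.72 with thapsigargin. FADS1 fell by 0.45 with thapsigargin, and ACLY, ACACA and FADS2 were called in neither (0.14 and -0.21, 0.19 and -0.22, 0.08 and 0.28). In sterol handling, TMEM97 fell by 0.20 with vehicle and MYLIP by 0.84 with thapsigargin.

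Set against each other, cholesterol enzymes fell further than fatty acid enzymes with siSTIM1 in vehicle, a difference of class medians of -0.65. Without GemR siCont vehicle replicate 1 this difference was -0.35. In thapsigargin it was -0.14, from -0.30 without GemR siSTIM1 thapsigargin replicate 1 to -0.06 without GemR siSTIM1 thapsigargin replicate 2, and it was -0.08 without GemR siCont thapsigargin replicate 1. The thapsigargin rise was wider for cholesterol than for fatty acid enzymes by 0.29 in Par and 0.29 in GemR siSTIM1 (0.18 without GemR siSTIM1 thapsigargin replicate 1), and by 0.04 in GemR siCont, where it was 0.14 without GemR siCont vehicle replicate 1 and the sign turned without vehicle replicate 2 or 3 or thapsigargin replicate 1 (-0.09, -0.12 and -0.03). Against the regulators, the cholesterol enzymes' median change with thapsigargin differed by -0.08, -0.01 and 0.06 in Par, GemR siCont and GemR siSTIM1, in that order. The Par value was -0.15 without Par vehicle replicate 3 and -0.05 without Par thapsigargin replicate 2. The GemR siCont value ran from -0.12 without vehicle replicate 2 to 0.05 without vehicle replicate 1, and the GemR siSTIM1 value from -0.04 without thapsigargin replicate 1 to 0.10 without thapsigargin replicate 3. These medians are descriptions of unequal numbers of genes and carry no test.

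**Figure D4:**
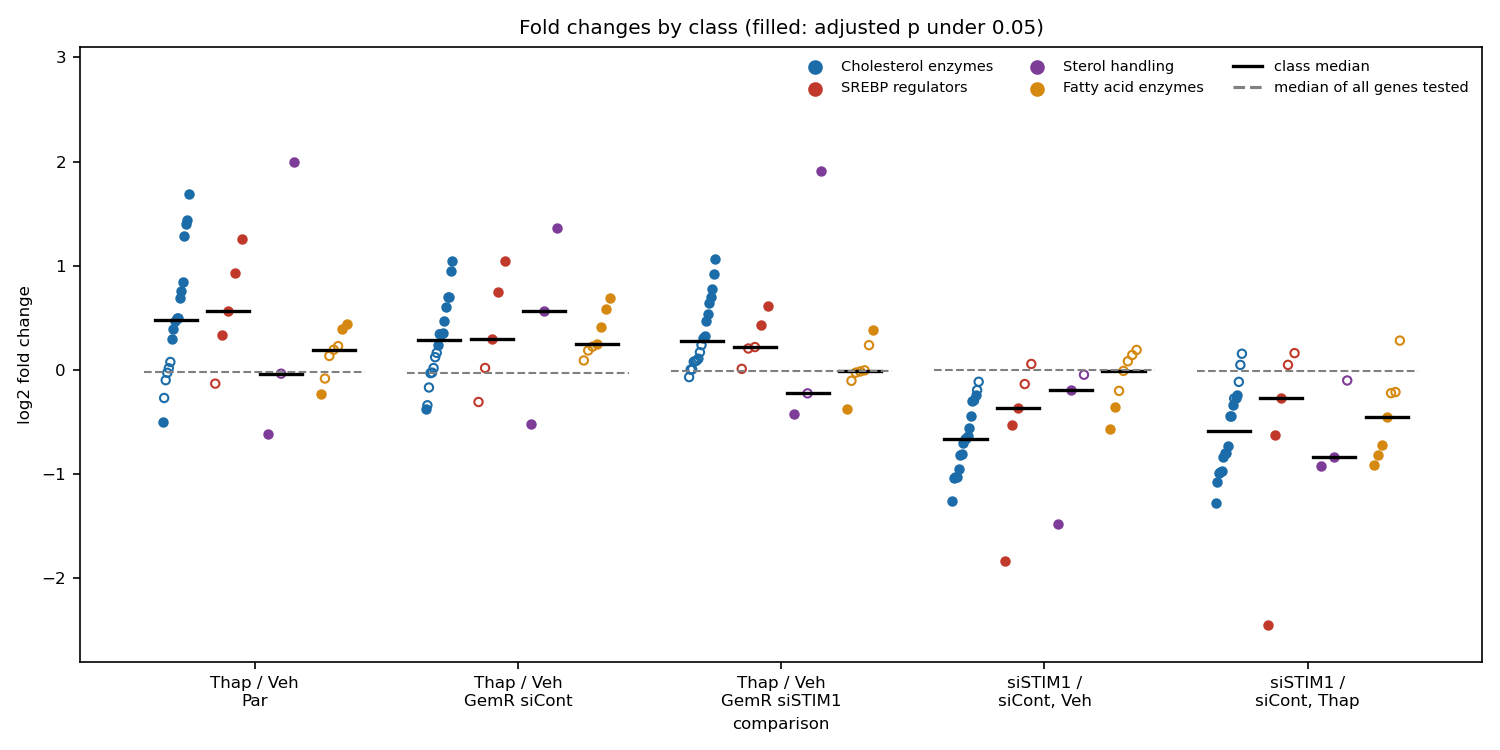
Log2 fold change of each member (points; filled where the adjusted p was under 0.05) by class and comparison, with class medians (black lines) and the median of all genes tested (grey dashes). The cholesterol enzymes' median lies below the dashes in both siSTIM1 comparisons, at -0.66 with vehicle and -0.59 with thapsigargin, while that of the fatty acid enzymes is at -0.01 with vehicle and -0.45 with thapsigargin.

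GemR and Par differed in both directions. Summed fibroblast markers were at 1004 to 1240 in GemR siCont vehicle, against 2011 to 2251 in Par vehicle, and the adipocyte list at 130 to 258, against 39.0 to 68.3; their part was not tested. With vehicle, 15 of 33 members were higher and 3 lower in GemR, against 18.1% and 20.1% of all genes. With thapsigargin 10 were higher and 3 lower, against 23.2% and 25%. MSMO1 had 971, 754 and 803 normalized counts in GemR siCont vehicle, against 436, 534 and 474 in Par vehicle, a difference of 0.80 ± 0.09, adjusted p = 1.3e-06. With thapsigargin the groups overlapped, with 1433, 1287 and 1364 in GemR siCont and 1336, 1177 and 1291 in Par (0.10 ± 0.09). INSIG1 was higher in GemR by 0.69 ± 0.14 with vehicle and 0.49 ± 0.14 with thapsigargin. TM7SF2 was lower in GemR under both treatments: it had 234, 162 and 139 in GemR siCont vehicle, against 315, 374 and 272 in Par vehicle (-0.86 ± 0.18), and 204, 177 and 137 in GemR siCont thapsigargin, against 355, 316 and 335 in Par thapsigargin (-0.97 ± 0.18). FADS1 was higher by 0.47 ± 0.10 and 0.50 ± 0.10, and ACAT2 by 0.43 ± 0.09 and 0.43 ± 0.09. HMGCS1 was higher by 0.50 ± 0.08 and HSD17B7 by 0.65 ± 0.17 with vehicle, and SQLE by 0.48 ± 0.09 with thapsigargin. SCAP was lower with vehicle (-0.24 ± 0.07), a call lost without GemR siCont vehicle replicate 3 (adjusted p = 0.0573). INSIG2 was lower in GemR with thapsigargin (-0.99 ± 0.12), as was STARD4 (-0.47 ± 0.12).

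In this comparison too the vehicle values leaned on GemR siCont vehicle replicate 1. Without it, the difference of PMVK was 0.32 (adjusted p = 0.0364) in place of 0.52, of MVD 0.35 (adjusted p = 0.00756) in place of 0.57 and of IDI1 0.24 (adjusted p = 0.0285) in place of 0.40. The calls of FDFT1 (0.26, and 0.13 without it, adjusted p = 0.102), SQLE (0.28 and 0.19, adjusted p = 0.0826), EBP (0.31 and 0.14, adjusted p = 0.269) and ACLY (-0.27 and -0.12, adjusted p = 0.175) were lost. FDFT1, SQLE and ACLY were also lost without Par vehicle replicate 1 or 3, and EBP with any of 11 of the 18 libraries left out (adjusted p = 0.0502 to 0.269). The cholesterol enzymes' median stood above that of the fatty acid enzymes by 0.49 with all libraries and 0.25 without that one, and above that of the regulators by 0.34 and 0.13. With thapsigargin the class medians were 0.09 for cholesterol enzymes, -0.03 for regulators, 0.16 for sterol handling and 0.12 for fatty acid enzymes.

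Whether a gene answered thapsigargin differently was tested directly as a difference of responses. Between GemR siCont and Par, 7 of 33 members differed, 1 with a larger and 6 with a smaller change in GemR (7.14% and 7.66% of all genes). Those with the smaller rise were HMGCS1 (-0.64 ± 0.12, adjusted p = 0.0008), MSMO1 (-0.70 ± 0.13, adjusted p = 0.000946), HSD17B7 (-0.84 ± 0.24, adjusted p = 0.0199), IDI1 (-0.58 ± 0.15, adjusted p = 0.0136) and STARD4 (-0.63 ± 0.16, adjusted p = 0.0114). The first 4 had a higher vehicle level in GemR and no called difference from Par with thapsigargin. INSIG2 differed most (-1.24 ± 0.17, adjusted p = 3.97e-05), rising in Par and not in GemR siCont. MYLIP had the larger change in GemR siCont (0.60 ± 0.19, adjusted p = 0.0408), a call lost with any of 11 of the 18 libraries left out (adjusted p = 0.0506 to 0.0888), and the call of HSD17B7 was lost without Par vehicle replicate 2 or GemR siCont thapsigargin replicate 2 (adjusted p = 0.0563 and 0.0565). Leaving out GemR siCont vehicle replicate 3 gave 11 members called.

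Between GemR siSTIM1 and GemR siCont, 3 of 33 responses differed, all lower with siSTIM1 (2.9% of all genes were lower and 1.5% higher; after median centring or quantile normalization FASN and MYLIP were lower and STARD4 higher). They were FASN (-0.71 ± 0.16, adjusted p = 0.0172), MYLIP (-0.79 ± 0.19, adjusted p = 0.0232) and ELOVL6 (-0.47 ± 0.13, adjusted p = 0.0427), 2 fatty acid enzymes and a receptor ligase. None of the 3 calls held with every library. FASN was lost without GemR siSTIM1 vehicle replicate 3 (adjusted p = 0.06). It was also lost in edgeR (0.079), a fit that left the same library out. The FASN difference is smaller in size without GemR siCont vehicle replicate 1, the lowest FASN count of its group. MYLIP was lost without GemR siCont thapsigargin replicate 2 or 3, GemR siSTIM1 vehicle replicate 2 or thapsigargin replicate 1 (adjusted p = 0.0504 to 0.0636). ELOVL6 was lost with any of 12 libraries left out (adjusted p = 0.0501 to 0.126). The number of members called was 1 without GemR siCont thapsigargin replicate 2 or 3 or GemR siSTIM1 thapsigargin replicate 1, and 5 without GemR siCont vehicle replicate 3. INSIG1 missed the threshold at -0.62 ± 0.20 (adjusted p = 0.0941) and passed it without GemR siCont vehicle replicate 1 (-0.76, adjusted p = 0.0173) or GemR siSTIM1 vehicle replicate 2 (-0.78, adjusted p = 0.0274). STARD4 had 0.55 ± 0.16 (adjusted p = 0.0626).

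**Figure D5:**
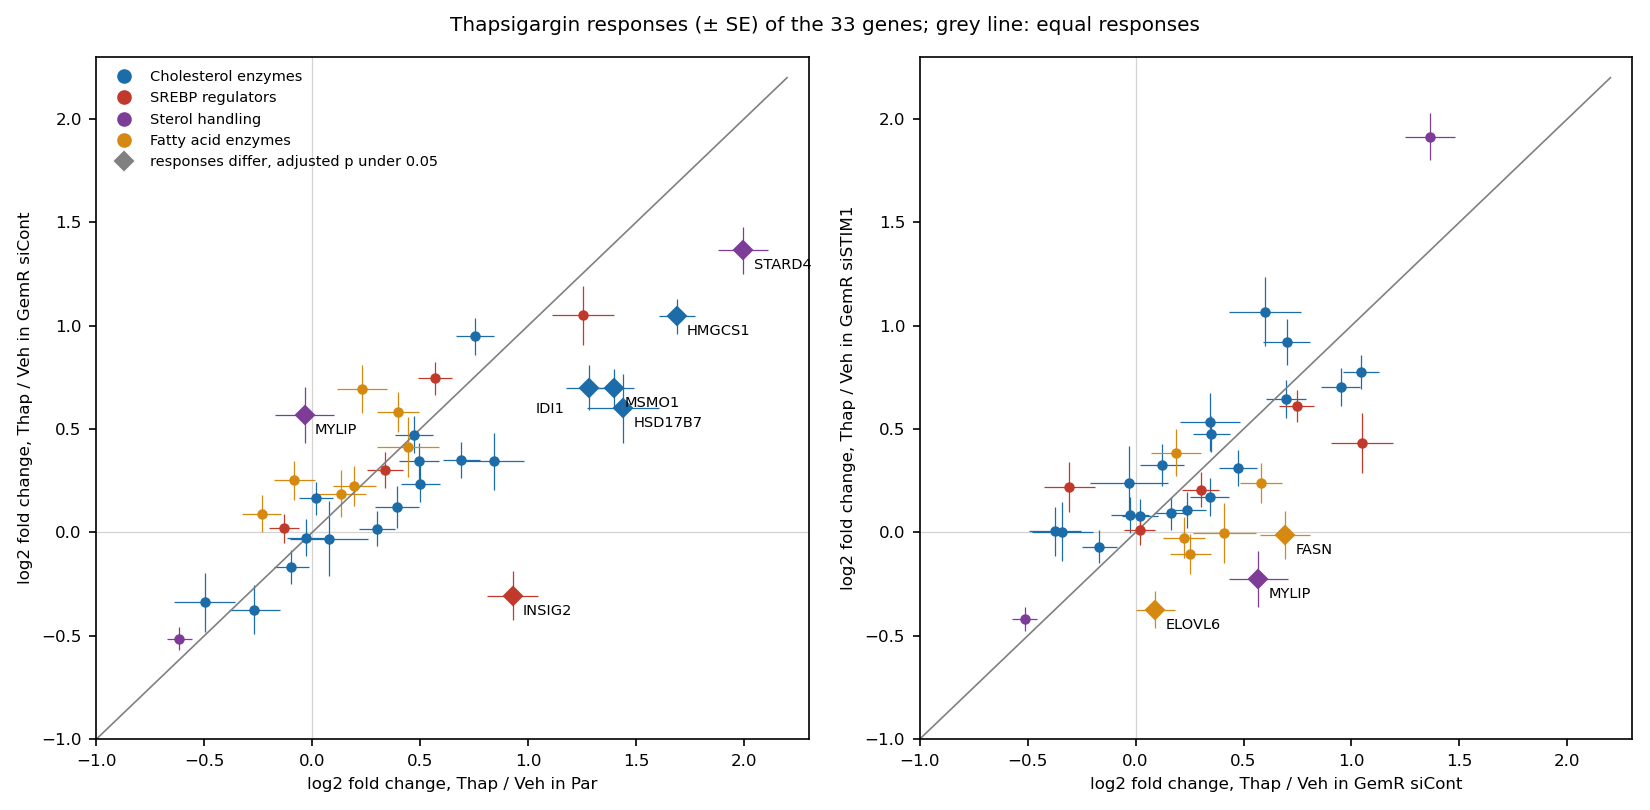
Thapsigargin log2 fold changes with standard errors of the 33 genes, GemR siCont (vertical) against Par (horizontal) on the left, and GemR siSTIM1 (vertical) against GemR siCont (horizontal) on the right; the grey line marks equal responses and diamonds those that differed. The GemR siCont groups enter both panels, once on each axis; INSIG2 at 0.93 in Par and -0.31 in GemR siCont lies farthest below the line on the left.

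Genes around the pathway were read from 7 lists, whose counts are descriptions to be set beside the shares of all genes tested. With thapsigargin these shares were 20.5% higher and 19.7% lower in Par, 17.9% and 15.8% in GemR siCont and 12.5% and 11.9% in GemR siSTIM1; with siSTIM1 they were 20.9% and 21.1% in vehicle and 17.7% and 18.9% in thapsigargin. Many of the counts lie near them, and nothing particular to a list is read from its count. Of 14 genes of SREBP processing and turnover, 2 rose and 5 fell with thapsigargin in Par, 3 rose and 4 fell in GemR siCont, 1 rose and 3 fell in GemR siSTIM1, and with siSTIM1 4 rose and 1 fell in vehicle and 4 rose and 3 fell in thapsigargin. Their median log2 changes were -0.08, -0.07 and -0.09 for thapsigargin in the 3 backgrounds, and -0.06 and -0.02 for siSTIM1. SEC24D, a coat protein of the vesicles that leave the ER, rose by 2.44 ± 0.08 in Par cells, 1.79 ± 0.08 in GemR siCont cells and 1.88 ± 0.08 in GemR siSTIM1 cells, wider than any of the 33 members in Par. RNF145, an ER ubiquitin ligase, fell by 0.48, 0.38 and 0.16.

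For 15 genes of cholesterol uptake, trafficking and storage, the counts with thapsigargin were 7 higher and 1 lower in Par, 7 higher in GemR siCont, and 7 higher and 2 lower in GemR siSTIM1; with siSTIM1 they were 4 and 3 in vehicle and 5 and 3 in thapsigargin. The medians of this list were 0.13, 0.12 and 0.15 for thapsigargin in the 3 backgrounds, and 0.04 and 0.07 for siSTIM1. VLDLR, a lipoprotein receptor, rose by 1.30 ± 0.14, 1.20 ± 0.14 and 1.58 ± 0.14, and OSBP, an oxysterol-binding transfer protein, by 1.28 ± 0.07, 0.82 ± 0.07 and 0.84 ± 0.07. NPC1, which exports cholesterol from lysosomes, rose by 1.30 ± 0.10 in Par and 1.09 ± 0.10 in GemR siCont. NCEH1, a cholesteryl ester hydrolase, was raised by siSTIM1, by 1.80 ± 0.10 with vehicle and 0.87 ± 0.10 with thapsigargin.

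Of 10 genes of LXR and cholesterol export, 6 were tested. With thapsigargin 2, 3 and 1 of them rose in Par, GemR siCont and GemR siSTIM1, and with siSTIM1 3 rose and 1 fell in vehicle and 2 rose and 1 fell in thapsigargin. Medians of the 6 genes were 0.07, 0.31 and 0.10 for thapsigargin in the 3 backgrounds, and 0.36 and 0.23 for siSTIM1. ABCA1, the pump that loads cholesterol onto apolipoprotein, averaged 859 ± 231 normalized counts in GemR siSTIM1 thapsigargin, 729 ± 82.5 in GemR siSTIM1 vehicle, 663 ± 53.6 in GemR siCont thapsigargin, 127 ± 44.0 in GemR siCont vehicle, 229 ± 6.25 in Par thapsigargin and 117 ± 34.3 in Par vehicle (SD, n = 3 each). With vehicle, siSTIM1 raised ABCA1 by 2.58 ± 0.24, and the LXR gene NR1H3 rose by 0.92 ± 0.13. With thapsigargin, the ABCA1 means of GemR siSTIM1 and GemR siCont lay closer together, at 859 ± 231 and 663 ± 53.6.

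Among 23 tested of 26 genes of other fatty acid supply and elongation, 6 rose and 5 fell with thapsigargin in Par, 8 rose and 1 fell in GemR siCont, and 3 rose and 3 fell in GemR siSTIM1; with siSTIM1, 4 rose and 10 fell in vehicle and 2 rose and 12 fell in thapsigargin. Medians of the 23 genes were 0.13, 0.14 and 0.10 for thapsigargin in the 3 backgrounds, and -0.15 and -0.22 for siSTIM1. MLX, a partner of the carbohydrate-response factors, fell by 1.27 and 1.41 with siSTIM1, and SCD5, the second stearoyl-CoA desaturase, by 1.67 with thapsigargin. ACSL5, an acyl-CoA synthetase, was lower in GemR than in Par with vehicle (-2.52) and was raised by siSTIM1 (1.20 ± 0.12). Of 10 tested of 11 glycerolipid genes, 2 rose and 4 fell, 2 rose and 2 fell, and 1 rose and 2 fell with thapsigargin in Par, GemR siCont and GemR siSTIM1, and with siSTIM1 4 rose and 3 fell in vehicle and 2 rose and 3 fell in thapsigargin. Medians of the 10 genes were -0.21, 0.02 and 0.03 for thapsigargin in the 3 backgrounds, and 0.08 and -0.03 for siSTIM1. LPIN1, a phosphatidate phosphatase, rose with thapsigargin by 0.98 ± 0.10, 1.17 ± 0.10 and 0.56 ± 0.10 and fell with siSTIM1 by 0.63 and 1.24. The 12 isoprenoid branch genes gave 3 higher and 2 lower in Par, 4 lower in GemR siCont and 3 higher and 1 lower in GemR siSTIM1 with thapsigargin, and with siSTIM1 5 lower in vehicle and 2 higher and 2 lower in thapsigargin. Their medians were 0.08, -0.14 and 0.06 for thapsigargin in the 3 backgrounds, and -0.15 and -0.02 for siSTIM1. Of 15 tested of 18 fatty acid oxidation genes, 1 rose and 1 fell, 2 rose and 2 fell, and 2 fell with thapsigargin in the same order, and 4 rose and 2 fell in vehicle and 3 rose and 2 fell in thapsigargin with siSTIM1. Medians of the 15 genes were -0.10, -0.09 and -0.05 for thapsigargin in the 3 backgrounds, and 0.06 and 0.05 for siSTIM1.

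In the authors' deposited table of each thapsigargin comparison, 19 members were higher and 3 lower in Par cells, 17 and 4 in GemR siCont cells and 13 and 2 in GemR siSTIM1 cells, at an adjusted p under 0.05 there. The authors' deposited fold changes had the same sign as those above for 33, 33 and 32 of the 33 members. Both come from the same libraries, so this is no independent check. The shares of all genes called in the deposited tables were not computed.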

How the data were processed

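Per the labels' protocols, QIAzol was used for extraction, and 500 ng of RNA went into each TruSeq RNA v2 library; that kit does not mark strand. Per the submitters' processing notes, STAR 2.6.0c, HTSeq 0.11.1, DESeq2 and the hg38 build were used. The deposited values are a signal that the authors call normalized counts: whole gene counts divided by 1 factor per library. The authors also deposited 5 comparison tables with log2 fold changes and p-values, and they were used only where named. Every value was a whole multiple of the library's smallest value within 0.01, so reads were recovered.

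The main test was limma 3.58.1 with a trend (R 4.3.3) on log2(normalized count + 1), on 13096 genes with a mean of at least 10, with 18 libraries, 6 group means and 12 residual degrees of freedom. P-values were Benjamini-Hochberg adjusted over all genes tested and called under 0.05, in 7 pairwise comparisons and 2 differences of responses. It was run on simulated counts with 200 genes changed between the Par groups and the same dispersion for every gene. These counts held no trend with exon length and no response difference was read from them. They therefore do not bear on calls that turn on either. The alternatives were 11 other settings, edgeR 4.0.16 and DESeq2 1.42.0 on recovered reads of 17 libraries among them (GemR siSTIM1 vehicle replicate 3 was left out), and leaving out each library. The values of the library left out of edgeR and DESeq2 were whole multiples as well, with 12448616 reads. These 2 fits thus had fewer libraries in that group for no fault seen in it. Replicate numbers were shared by groups. Their deviations correlated by -0.18 to 0.23, with 6 of 21 pairs above 0.1 and in 0 of 7 comparisons all. The numbers were therefore not used to pair libraries in the main test. Low correlations across all genes cannot exclude a pairing, and a replicate block was among the alternatives.

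From each list of other genes, up to 4 called genes with the largest absolute change in a comparison could be named. HSD17B7 and FDPS have pseudogenes, HSD17B7P2 and FDPSP2, with means of 5.57 and 0.82 normalized counts. The members and lists were chosen with earlier results of these data known. Exon lengths and overlaps came from GENCODE 29: 16 of the 33 members share exon bases with another gene, 15 with one on the opposite strand. Promoters came from RefSeq, GRCh38.p14.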

Additional observations from a re-analysis of the deposited data

Results flagged for a closer look

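The thapsigargin response of 7 members differed between GemR siCont and Par by a test of the difference itself (limma, GemR siCont minus Par, log2 scale). Of all genes tested, 7.14% were higher and 7.66% lower by this test. The call of MYLIP was lost with any of 11 of the 18 libraries left out, and that of HSD17B7 with either of 2. HMGCS1 differed by -0.64, with responses of 1.04 in GemR siCont and 1.69 in Par. IDI1 differed by -0.58 (0.70 and 1.28), MSMO1 by -0.70 (0.70 and 1.40), HSD17B7 by -0.84 (0.60 and 1.44) and STARD4 by -0.63 (1.36 and 2.0). INSIG2 differed by -1.24 (-0.31 and 0.93), with every treated GemR siCont library below its vehicle libraries and every treated Par library above them. MYLIP differed by 0.60 (0.57 and -0.04).

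Between GemR siSTIM1 and GemR siCont, 3 responses differed by the same test (GemR siSTIM1 minus GemR siCont), all lower. Of all genes tested, 1.5% were higher and 2.9% lower. Of the 3 calls, 0 held with every library left out in turn, and 0 members were called in a limma fit to those libraries alone. MYLIP differed by -0.79 (-0.22 in GemR siSTIM1 and 0.57 in GemR siCont), FASN by -0.71 (-0.01 and 0.69) and ELOVL6 by -0.47 (-0.37 and 0.09).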

How the results depend on the processing

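Over 29 other settings, 0 called member values changed sign. Of 18 differences of class medians, which carry no test, 5 changed sign: cholesterol enzymes minus fatty acid enzymes with thapsigargin in GemR siCont and in GemR over Par with thapsigargin (-0.03, and 0.03 without GemR siCont thapsigargin replicate 3), and cholesterol enzymes minus regulators with thapsigargin in GemR siCont and GemR siSTIM1 and in the response of GemR siSTIM1 over GemR siCont. With 1 library left out, 5151 member values stayed on their side of the threshold, 49 came to pass it and 146 came to miss it; under the 11 other settings the numbers were 3131, 67 and 69. Of 143 called member results, 109 kept their call with every library left out in turn. In GemR over Par with vehicle, 9 members were called in a fit to those libraries alone, which has fewer samples, and the cholesterol enzymes' median exceeded the regulators' by 0.13 without both libraries tied to exon length, against 0.34; leaving out 1 library gave 0.13 to 0.45. In the response of GemR siCont over Par, 11 members were called without both libraries, and 5 to 11 with 1 left out. In the response of GemR siSTIM1 over GemR siCont, 0 members were called in a limma fit to those libraries alone (3 higher and 7 lower at an unadjusted p under 0.05; edgeR called 2 and DESeq2 4), and 1 to 5 with 1 library left out. There the cholesterol enzymes' median exceeded that of the fatty acid enzymes by 0.080 and that of the regulators by 0.031 without both libraries, against 0.46 and 0.20, and the difference from the regulators was -0.0085 to 0.30 with 1 left out. The cause was not tested. Calls with adjusted p values over 0.05 in edgeR or DESeq2, beside those named above, were those of ACLY with thapsigargin in GemR siCont (0.0685 and 0.0602), of ACLY (0.0501, edgeR) and FADS2 (0.0743, DESeq2) in GemR over Par with vehicle, and of NSDHL in siSTIM1 over siCont with vehicle (0.0552, DESeq2). Both tools left out GemR siSTIM1 vehicle replicate 3, without which the limma call of NSDHL was lost too. With a replicate block, the members called were 21, 22 and 15 for thapsigargin in Par, GemR siCont and GemR siSTIM1, 18 and 13 for GemR over Par with vehicle and thapsigargin, 22 and 23 for siSTIM1 over siCont, and 9 and 3 for the response differences; no count moved by over 1.5 times. With 3 libraries a group, small changes could miss the threshold, and reads of overlapping genes could not be assigned.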
